A study of Mus musculus with 2 samples.

Results

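The 39 mouse Hox genes, every gene of the count tables whose symbol is Hox, a cluster letter from a to d and a paralogue number, were examined in dorsal root ganglia. They were taken from 32285 annotated genes, and the question was whether 2 single-cell libraries of different genotype hold cells of the same body levels. Of the 39, 35 had at least 1 UMI (unique molecular identifier, which counts 1 RNA molecule) in both libraries. Hoxd12, Hoxa13, Hoxb13 and Hoxd13 had 0 UMIs in the cKO library and 3, 2, 1 and 3 UMIs in the flox library.

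The cKO library came from mice that carried a Dhh CRE transgene with 2 floxed Ptges3 alleles, and the flox library from mice with the floxed alleles and no stated Cre. Both genotypes were sampled at postnatal day 4. Dhh-driven Cre acts in the Schwann cell lineage, so only part of the ganglion's cells is meant to lose Ptges3, which encodes the HSP90 cochaperone p23. The labels state that ganglia of every axial level were dissected. They do not give the number of mice per library, their sex or their strain.

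Hox genes encode homeodomain transcription factors and lie in 4 clusters, Hoxa on chromosome 6, Hoxb on chromosome 11, Hoxc on chromosome 15 and Hoxd on chromosome 2. Genes with the same paralogue number are related by descent. Low-numbered genes are used from the hindbrain backwards and high-numbered genes only further back, an order that follows their order along the cluster. In the trunk of the mouse, paralogues 10 and 11 are known for patterning the lumbar and sacral levels, and cells keep much of this code after birth. The Hox code of a cell therefore carries a record of its body level, here called caudal for paralogues 10 to 13.

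Each genotype had 1 library, so no difference below has a replicate check, none was tested between genotypes, and the 95% intervals cover counting error only. The cKO library held 9703 barcodes with 78144437 UMIs, and the flox library 10014 barcodes with 132620886 UMIs. After filters on UMIs, genes and mitochondrial share, 8435 cKO and 8714 flox cells remained, and 23 barcode sequences occurred in both libraries. Cells were put in classes by marker genes that include no Hox gene. There were 2336 cKO and 1569 flox sensory neurons, 2895 and 3784 glia, 1206 and 1143 fibroblasts, 139 and 118 endothelial cells, and 86 and 86 mural cells (pericytes and smooth muscle). Cells with oligodendrocyte or astrocyte markers, types of the central nervous system, numbered 0 and 0 in the cKO library, against 353 and 174 in the flox library. Neurons with few peripheral sensory markers, called central-type, numbered 62 and 38. Ptges3 was at 142 CPM (UMIs per 1000000 UMIs of the class) in cKO glia, against 255 CPM in flox glia, and at 390.0 CPM in cKO neurons, against 273 CPM in flox neurons. The sources used here do not name the exons that Cre removes, so a 3′ tag need not lie in the deleted part.

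3 promoters are shown because their genes carry the results below, Hoxd10 and Hoxd11 in neurons and Hoxa11 and Hoxd11 in fibroblasts. Each window runs from 250 bases before to 50 bases after a RefSeq gene start, 5′ to 3′ on the gene's strand, with CpG dinucleotides in capitals. The build is GRCm38.p6, and the windows are chr2:74691641-74691940 (plus strand) for Hoxd10, chr2:74679308-74679607 (plus strand) for Hoxd11 and chr6:52245761-52246060 (minus strand) for Hoxa11.
Hoxd10: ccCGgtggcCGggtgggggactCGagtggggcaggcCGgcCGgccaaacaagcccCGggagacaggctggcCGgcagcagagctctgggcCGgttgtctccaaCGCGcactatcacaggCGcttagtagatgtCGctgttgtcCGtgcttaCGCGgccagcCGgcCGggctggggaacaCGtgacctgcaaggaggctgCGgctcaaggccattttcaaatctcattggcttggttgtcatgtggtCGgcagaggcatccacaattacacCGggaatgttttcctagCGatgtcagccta
Hoxd11: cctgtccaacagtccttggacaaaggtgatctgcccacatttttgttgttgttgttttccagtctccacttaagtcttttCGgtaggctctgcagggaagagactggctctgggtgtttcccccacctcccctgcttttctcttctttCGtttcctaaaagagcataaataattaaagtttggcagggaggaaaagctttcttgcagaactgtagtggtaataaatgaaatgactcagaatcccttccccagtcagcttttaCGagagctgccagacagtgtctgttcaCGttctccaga
Hoxa11: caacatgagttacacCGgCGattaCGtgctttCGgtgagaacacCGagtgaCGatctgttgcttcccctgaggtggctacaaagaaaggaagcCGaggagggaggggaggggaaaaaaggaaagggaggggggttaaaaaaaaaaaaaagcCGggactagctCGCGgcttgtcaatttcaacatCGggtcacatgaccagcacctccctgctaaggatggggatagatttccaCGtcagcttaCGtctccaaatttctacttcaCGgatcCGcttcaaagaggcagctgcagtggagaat
RefSeq promoter windows matched 22 of the 39 members. The Hoxd10 window holds 22 CpG, a number reached by 23.1% of the 32851 mouse windows of the same length. The Hoxa11 window holds 15 (34.6% of windows) and the Hoxd11 window 4 (68.6% of windows). The window shown for Hoxd11 is the one nearest to the gene's annotated start, and a second RefSeq start was not printed. These are properties of the letters and say nothing of methylation, which was not measured.

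Hox RNA was present in every named class of neural crest, mesodermal or central origin. The summed level of the 39 genes was 339 CPM (334 to 345) in cKO sensory neurons, against 330 CPM (326 to 334) in flox sensory neurons. It was 186 CPM (178 to 194) in cKO glia and 218 CPM (213 to 224) in flox glia. Fibroblasts had more, with 663 CPM (643 to 684) in the cKO library and 787 CPM (770 to 804) in the flox library. Endothelial cells had 245 CPM in the cKO and 340 CPM in the flox library, and mural cells 380 and 777 CPM. Macrophages, which come from neither neural crest nor local mesoderm, had 23.9 CPM (13.7 to 38.9) in the cKO library and 31.6 CPM (23.4 to 41.8) in the flox library. Those 16 and 49 UMIs were taken as a level that free RNA can give in a droplet. Erythroid cells, also meant as a background, had 67.5 CPM (24.8 to 147) in the cKO library, from 6 UMIs. In the flox library they had 27.0 CPM (8.78 to 63.1), from 5 UMIs. The background is therefore known only roughly, above all in the cKO library.

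The share of Hox UMIs from paralogues 10 to 13 set the classes apart. It was 12.7% (12.2 to 13.2) in cKO sensory neurons, against 11.3% (10.9 to 11.7) in flox sensory neurons, a log2 ratio of 0.17 (0.09 to 0.25). In glia it was 5.20% (4.27 to 6.26) in the cKO and 7.55% (6.88 to 8.26) in the flox library, a log2 ratio of -0.54 (-0.86 to -0.23). Fibroblasts had 9.84% (8.96 to 10.8) in the cKO library against 23.9% (23.0 to 24.8) in the flox library, a log2 ratio of -1.28 (-1.44 to -1.13). The caudal share of mural cells was 15.2% (8.97 to 23.6) in the cKO and 29.9% (25.9 to 34.2) in the flox library. That of endothelial cells was 3.08% (1.14 to 6.58) and 4.74% (2.99 to 7.09), intervals that overlap. With cells thinned to 2000 UMIs the neuron ratio was -0.046 (-0.39 to 0.30) and the endothelial ratio 0.48 (-2.09 to 3.25). Their signs changed, but both intervals span 0, so neither gives a direction. The difference between libraries was thus small in neurons and larger in fibroblasts and mural cells.

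**Figure D1:**
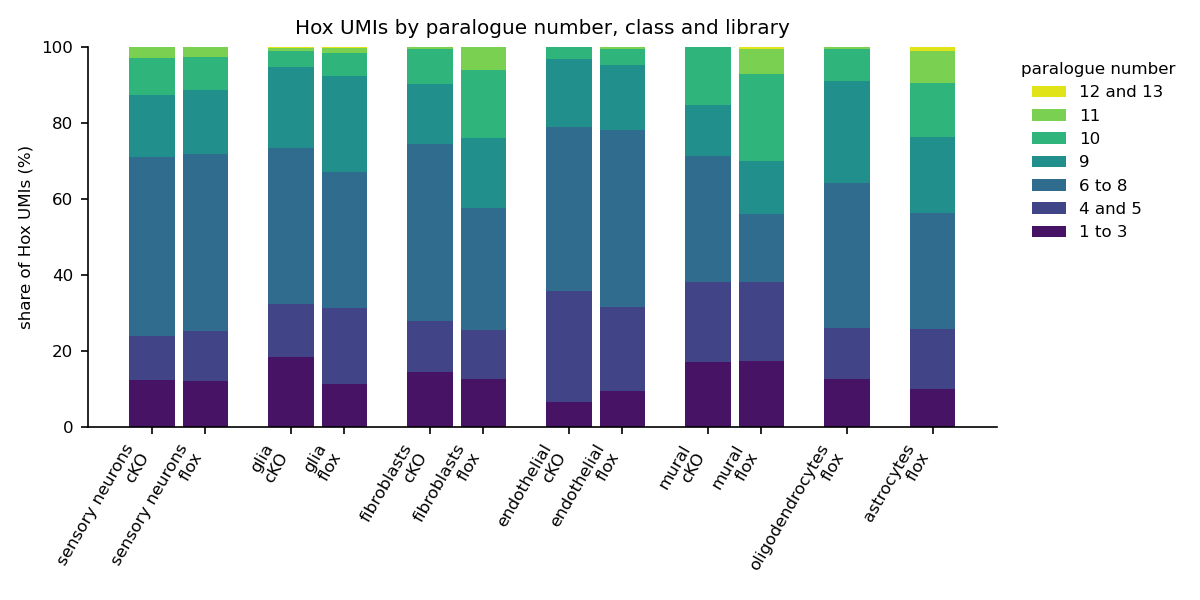
Share of Hox UMIs (%) in each band of paralogue numbers, stacked to 100%, for cKO and flox cells of each class; oligodendrocytes and astrocytes were found only in the flox library. The sensory neuron columns are nearly alike, whereas paralogues 10 and above fill 9.84% of the cKO and 23.9% of the flox fibroblast column.

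In sensory neurons 29 of the 39 members had at least 50 UMIs over both libraries, the minimum for a measured gene. Of these, 4 were higher and 1 lower in cKO neurons by at least 0.5 log2, against a background of 7.79% and 4.51% of the 15025 genes measured there. The median log2 ratio of the 29 was 0.09, beside -0.02 for all measured genes. The remaining 24 stayed within 0.5 log2.

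The rostral members of neurons are Hoxb2, Hoxb4, Hoxb5 and Hoxa5, which in the embryo pattern hindbrain and neck levels, together with Hoxd1. Hoxd1, which in mice is known for a role in nociceptor wiring, had 1133 cKO and 1763 flox UMIs, or 22.5 and 24.2 CPM. Hoxb2 had 10.7 CPM in cKO and 8.39 CPM in flox neurons. Hoxb4 had 8.26 and 9.92 CPM, Hoxa5 12.6 and 12.0 CPM, and Hoxb5 9.33 and 10.7 CPM. All 5 lay within 0.5 log2. Hoxd3 was the 1 member lower in cKO neurons, with 49 cKO and 146 flox UMIs (log2 -1.05, interval -1.54 to -0.57). Its exons overlap those of Hoxd4 on the same strand, so reads of these 2 genes may be split between them. Hoxa3 was higher in cKO neurons, with 73 UMIs against 60 in flox neurons (log2 0.81, interval 0.30 to 1.33), and it overlaps antisense genes.

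The trunk members Hoxa7 and Hoxb7, which pattern the thoracic level, had the most UMIs of the family, where a 3′ tag counts each molecule once and is not scaled by transcript length. Hoxa7 had 3608 UMIs in cKO and 5223 UMIs in flox neurons, or 71.5 and 71.7 CPM. Hoxb7 had 43.6 CPM in cKO and 41.9 CPM in flox neurons, and Hoxd8 15.6 and 16.4 CPM. Hoxb8 was higher in cKO neurons, with 4.54 CPM against 2.85 CPM in flox neurons (log2 0.67, interval 0.39 to 0.95). Paralogues 6 to 8 together made up 47.0% of Hox UMIs in cKO and 46.8% in flox neurons.

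Among paralogue 9, whose members mark the lower trunk, Hoxa9 had 27.2 CPM in cKO and 29.2 CPM in flox neurons and Hoxc9 19.2 and 18.5 CPM. Of paralogues 10 and 11, known from limb and lumbar motor neuron patterning, Hoxa10 had 918 UMIs in cKO and 1093 UMIs in flox neurons (log2 0.28, interval 0.15 to 0.41). Hoxc10 had 9.21 and 8.11 CPM, and Hoxd10 5.61 and 5.57 CPM. Hoxd11 had 414 cKO and 550 flox UMIs, or 8.20 and 7.55 CPM. Hoxc11 was higher in cKO neurons, with 101 UMIs against 66 in flox neurons (log2 1.14, interval 0.68 to 1.61). Paralogues 12 and 13, which pattern the tail, had 0 UMIs in cKO and 4 UMIs in flox neurons.

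**Figure D2:**
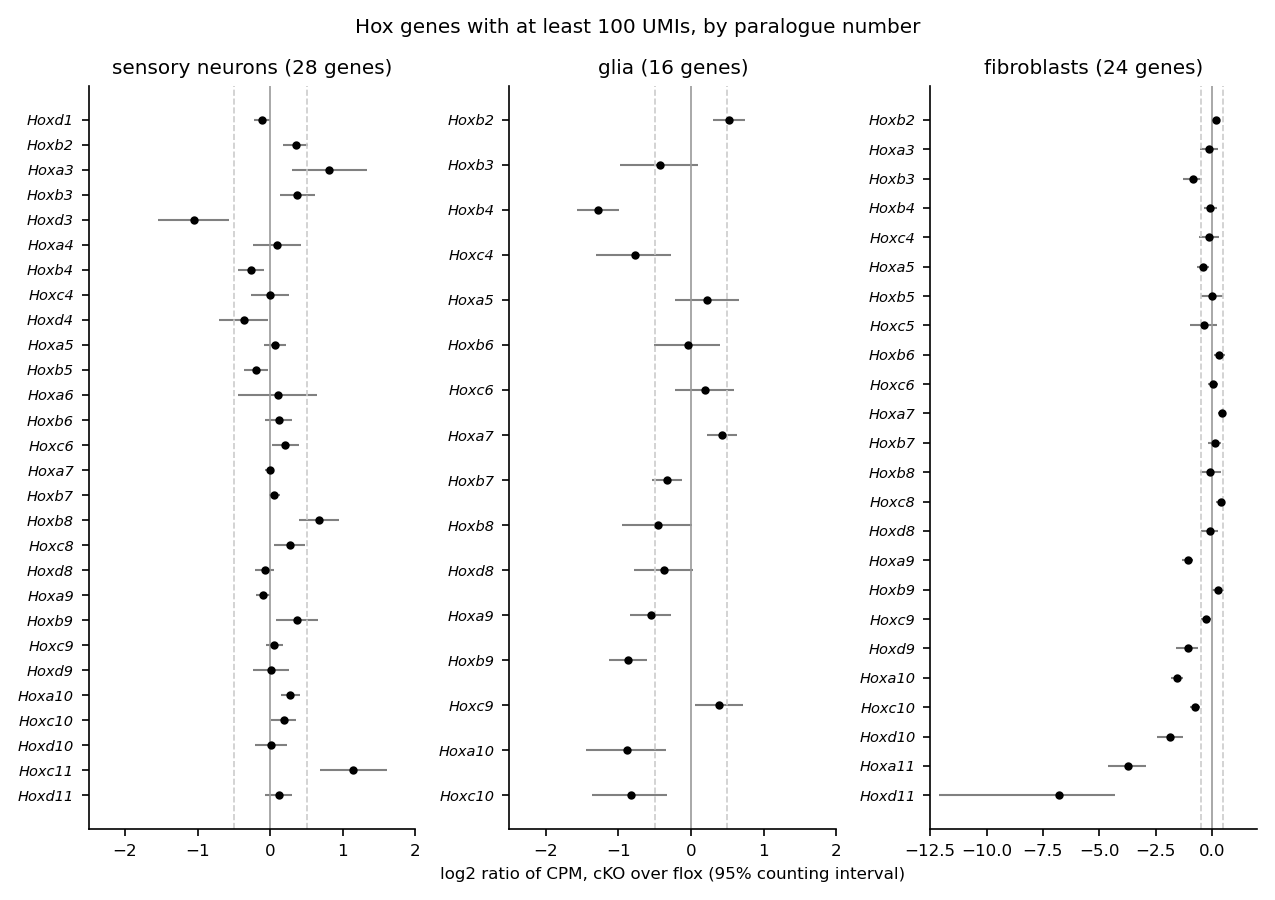
Log2 ratio of CPM, cKO over flox, of each Hox gene with at least 100 UMIs over both libraries, from the lowest paralogue number at the top to 11 at the bottom; bars are 95% counting intervals, dashed lines mark 0.5 log2 either way, and the fibroblast panel has a wider axis. Most neuron points sit near 0, whereas 7 of the fibroblast points at paralogues 9 to 11 lie below -0.5, down to -3.71 for Hoxa11 and -6.78 for Hoxd11.

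Depth differs between the libraries, with medians of 15559 UMIs per cKO and 48212 UMIs per flox neuron, so cells were also compared at equal depth. With each neuron thinned to 2000 UMIs, 6.71% (5.72 to 7.82) of 2280 cKO neurons had a UMI of paralogues 10 to 13, against 6.77% (5.57 to 8.14) of 1551 flox neurons. Unthinned, these shares were 33.9% and 38.2%. Thinned macrophages had 0.699% (1 of 143) in the cKO and 1.40% (4 of 286) in the flox library, from medians of 3527.5 and 4381 UMIs before thinning.

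The highest Hox paralogue detected in single neurons was read from neurons with at least 20000 UMIs, thinned to that number. There were 996 such cKO and 1290 such flox neurons, with a mean of 6.94 and 6.58 Hox UMIs each, and 9 and 19 of them had none. At so few Hox UMIs, RNA of a higher paralogue can be missed, so the highest number found need not give the body level. The highest paralogue number with a UMI was 7 or more in nearly all neurons, and 1 to 5 in 23 cKO and 28 flox neurons. It was 7 in 16.4% of cKO and 21.9% of flox neurons, 8 in 11.3% and 10.2%, and 9 in 30.8% and 32.9%. It was 10 in 27.9% (25.1 to 30.8) of cKO neurons, against 21.9% (19.7 to 24.3) of flox neurons, and 11 in 9.64% and 8.60%. In all, 37.6% (34.5 to 40.6) of deep cKO neurons and 30.6% (28.1 to 33.2) of deep flox neurons had a UMI of paralogues 10 to 13. These deep cells are 996 of 2336 cKO and 1290 of 1569 flox neurons, so they are a different part of each library's neurons.

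**Figure D3:**
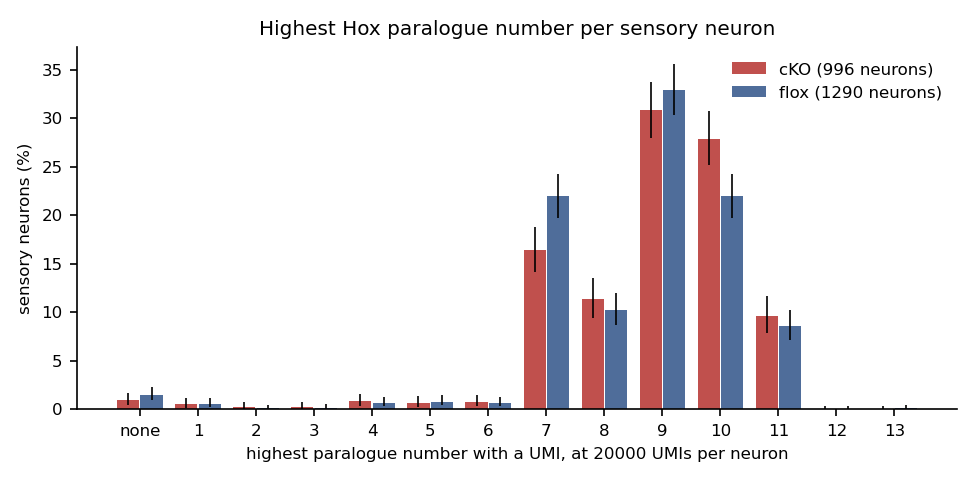
Percent of deep sensory neurons (at least 20000 UMIs, thinned to 20000) by the highest Hox paralogue number with a UMI, cKO (996 neurons) beside flox (1290 neurons), with 95% exact intervals. Both libraries hold neurons at 7 to 11, with 27.9% of cKO and 21.9% of flox neurons at 10.

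Detection in the same neurons was positively correlated for more pairs of genes within paralogues 9 to 11 than within paralogues 1 to 8, at the phi limit of 0.1 used below. Among the 24 members with a UMI in at least 30 deep neurons of each library, phi, the correlation of 2 yes-or-no values over neurons, was computed for 276 pairs. It is given as a description, since neurons of 1 library share that library and free RNA. For Hoxd10 and Hoxd11, neighbours on chromosome 2 (chr2:74691924-74695105 and chr2:74679557-74687016, GRCm38), phi was 0.65 in cKO and 0.73 in flox neurons. Of the 70 cKO neurons with Hoxd10, 53 also had Hoxd11, and in the flox library 73 of 91 did. The promoters printed above show that this pair differs in CpG number, 22 against 4.

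Phi was also positive for some pairs between clusters. Phi of Hoxc10 and Hoxd11 was 0.23 in cKO and 0.25 in flox neurons, and that of Hoxa10 and Hoxc10 0.17 and 0.22. Of the 28 pairs within paralogues 9 to 11, 11 had a phi of at least 0.1 in both libraries. Of the 120 pairs within paralogues 1 to 8, 1 did, Hoxa7 with Hoxb7 (0.12 in cKO and 0.11 in flox neurons). Of the 128 pairs of a gene of paralogues 1 to 8 with one of 9 to 11, 0 did. Median phi was 0.074 in cKO and 0.11 in flox neurons within paralogues 9 to 11, and 0.0082 and 0.0029 within paralogues 1 to 8.

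**Figure D4:**
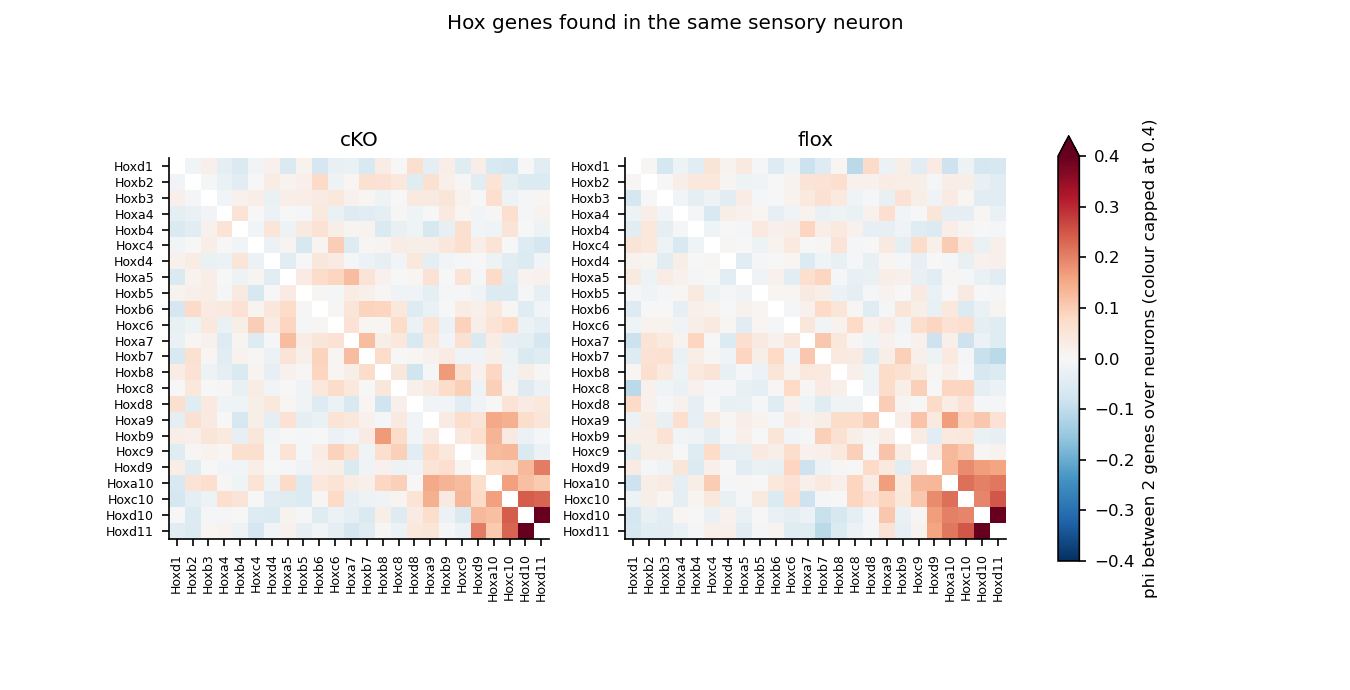
Phi between each 2 of the 24 Hox genes found in at least 30 deep neurons per library, cKO left and flox right, ordered by paralogue number, with colour capped at 0.4. In both panels most of the higher values lie at the bottom right, where Hoxd10 with Hoxd11 reaches 0.65 in cKO and 0.73 in flox neurons.

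Neuron subtypes differed in their Hox profile within each library. Peptidergic nociceptors had a caudal share of 16.9% (15.9 to 17.9) in cKO and 15.9% (14.96 to 16.8) in flox cells. Non-peptidergic nociceptors had 10.8% (9.83 to 11.8) and 9.32% (8.67 to 9.99). C-fibre low-threshold mechanoreceptors had 9.80% and 9.64%, on 55 and 113 cells. Myelinated neurons had 13.3% (11.4 to 15.5) of 1102 Hox UMIs in the cKO library, against 7.17% (5.86 to 8.67) of 1366 in the flox library, from 111 and 81 cells. In them Hoxd10 and Hoxd11 had 25 and 21 cKO UMIs, against 5 and 4 flox UMIs. The somatostatin subtype gate found 0 cells in either library. Neurons given no subtype, 837 cKO and 510 flox cells, had a caudal share of 10.6% and 10.8%, a log2 ratio of -0.02 (-0.17 to 0.14). The log2 ratio was 0.09 in peptidergic, 0.21 in non-peptidergic, 0.02 in C-fibre and 0.89 in myelinated neurons. Peptidergic neurons numbered 983 cKO and 410 flox cells, and non-peptidergic neurons 350 and 455. The part of subtype makeup in the ratio of all sensory neurons was not tested.

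Hoxd1 varied by subtype. It was at 54.9 CPM (46.5 to 64.2) in cKO and 65.8 CPM (58.2 to 74.2) in flox myelinated neurons. Peptidergic neurons had 21.9 CPM in the cKO and 25.4 CPM in the flox library, and non-peptidergic neurons 12.0 and 12.6 CPM. The order of these 3 subtypes was the same in both libraries, with intervals that did not overlap. Hoxb7 was at 86.3 CPM (72.4 to 102) in cKO and 72.2 CPM (64.4 to 80.6) in flox C-fibre mechanoreceptors, above the 34.9 and 33.4 CPM of peptidergic neurons.

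In glia 20 members were measured, 1 higher and 8 lower in cKO glia by at least 0.5 log2, beside 15.4% and 14.1% of the 12579 genes measured. Their median log2 ratio was -0.40, beside 0.01 for all genes. Hoxb4, a neck-level gene, had 119 UMIs (10.9 CPM) in cKO and 699 UMIs (26.5 CPM) in flox glia, a log2 ratio of -1.28 (-1.57 to -0.99). The same gene was lower in myelinating Schwann cells (log2 -1.25), cycling glia (-1.28) and other glia (-1.66). Hoxb9, of the same cluster, had 13.9 CPM in cKO and 25.3 CPM in flox glia (log2 -0.87). Hoxb2 was higher, with 24.7 CPM in cKO against 17.1 CPM in flox glia (log2 0.52), and Hoxa7 had 27.3 and 20.3 CPM. With TMM or DESeq2 scaling the Hoxb2 ratio fell within 0.5 log2, and in cycling glia it was -0.08. The 8 lower members were Hoxb4, Hoxc4, Hoxc5, Hoxa9, Hoxb9, Hoxd9, Hoxa10 and Hoxc10, so they ran from the neck level to the lumbar level. Hoxc5 and Hoxc10 overlap on the same strand.

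Each glial state had more lower than higher members. In myelinating Schwann cells 2 of 16 were higher and 7 lower, beside 12.4% and 16.6% of genes. In cycling glia 0 of 13 were higher and 8 lower, beside 8.04% and 15.4%. In other glia 0 of 16 were higher and 9 lower, beside 9.57% and 17.7%. The log2 ratio of the caudal share was -1.13 (-2.29 to -0.16) in myelinating Schwann cells, from 9 cKO UMIs. It was -0.39 (-0.97 to 0.17) in cycling glia and -0.80 (-1.24 to -0.37) in other glia. Summed Hox RNA had log2 ratios of -0.43, -0.55 and -0.48 in myelinating, cycling and other glia, beside -0.23 in all glia.

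Caudal Hox RNA in glia was set beside the macrophage level. Paralogues 10 to 13 had 9.66 CPM in cKO and 16.5 CPM in flox glia, against 2.99 and 8.40 CPM in macrophages. Thinned to 2000 UMIs, 1.70% (1.22 to 2.31) of cKO and 3.30% (2.75 to 3.94) of flox glia had such a UMI. Myelinating Schwann cells had 0.509% in the cKO and 1.67% in the flox library, which are not read as expression beside the macrophage shares. The glial class was 624 myelinating of 2895 cells in the cKO and 1876 of 3784 in the flox library. Median depth was 3236 UMIs per cKO and 5875.5 UMIs per flox glial cell. The summed fibroblast list was at 3621 CPM in cKO and 4339 CPM in flox glia, with 1 of its 11 genes (Dpt) at 0 in cKO glia. The glial list was at 19597 CPM in cKO and 63938 CPM in flox glia, and the erythroid list at 603 and 1721 CPM. The pan-neuronal list was at 520.3 and 199 CPM and the peripheral sensory list at 452 and 144 CPM, with no gene of these 4 lists at 0. The part of these lists in the glial Hox values was not tested.

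In fibroblasts the differences lay mostly in the caudal members. Of 27 measured members, 0 were higher and 8 lower in cKO fibroblasts by at least 0.5 log2, beside 9.24% and 17.4% of the 11644 genes measured. The 8 were Hoxb3, Hoxa9, Hoxd9, Hoxa10, Hoxc10, Hoxd10, Hoxa11 and Hoxd11, so 7 of them have a paralogue number of 9 or more. The median log2 ratio of the 27 was -0.13, beside -0.08 for all genes.

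Hoxa11, which patterns the forearm and the kidney as well as the lumbosacral axis, had 14 UMIs (2.20 CPM) in cKO fibroblasts and 301 UMIs (28.8 CPM) in flox fibroblasts. Its log2 ratio was -3.71 (-4.60 to -2.94). Hoxd11 had 1 UMI in cKO and 180 UMIs in flox fibroblasts, a log2 ratio of -6.78 (-12.09 to -4.28). Hoxd10 had 31 and 184 UMIs (4.86 and 17.6 CPM), and Hoxa10 129 and 621 UMIs (20.2 and 59.4 CPM). Hoxc10 had 37.5 CPM in cKO and 63.3 CPM in flox fibroblasts. Of the trunk genes, Hoxa7 had 110.0 CPM in cKO and 81.8 CPM in flox fibroblasts, Hoxc8 63.1 and 48.3 CPM, and Hoxb6 41.7 and 33.3 CPM. Hoxb9 stood apart from its paralogues Hoxa9 and Hoxd9, with 32.8 CPM in cKO and 27.1 CPM in flox fibroblasts. Thinned to 2000 UMIs, 9.33% (7.64 to 11.3) of cKO and 25.3% (22.7 to 28.0) of flox fibroblasts had a UMI of paralogues 10 to 13, and unthinned 20.7% and 45.6%.

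Caudal UMIs in fibroblasts were set beside Wnt4, a secreted signalling protein. Cells with a Wnt4 UMI held 30 of the 416 caudal UMIs of cKO fibroblasts and 1323 of the 1968 of flox fibroblasts. In the cKO library 15 of 1206 fibroblasts had a UMI of paralogue 11, and 0 of them had Wnt4, Slc6a13 or Aldh1a2. In the flox library 196 of 1143 fibroblasts had a UMI of paralogue 11, and 147 of these (75.0%) had a Wnt4 UMI, against 170 (18.0%) of the others. The 196 were deeper, with a median of 11599.5 UMIs against 6455 in the rest. Slc6a13, a GABA and taurine transporter, was in 81.1% and 29.0% of these 2 sets, and Aldh1a2, which makes retinoic acid, in 68.4% and 15.8%. Ptgds was in 13.3% and 14.3%, and Mfap5, a marker of the fibroblast list, in 76.0% and 82.9%. Wnt4 itself was in 32 cKO fibroblasts (7.22 CPM), against 317 flox fibroblasts (333 CPM). These genes were picked with earlier results of the same cells known, so their overlap with caudal Hox RNA is a description.

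With a Wnt4 UMI, the caudal share was 17.6% (12.2 to 24.2) of 170 Hox UMIs in cKO and 46.8% (45.0 to 48.7) of 2825 in flox fibroblasts. In these cells Hoxa11 had 0 UMIs in the cKO and 259 UMIs in the flox library. Without a Wnt4 UMI, it was 9.51% (8.63 to 10.5) in cKO and 11.9% (11.1 to 12.8) in flox fibroblasts, a log2 ratio of -0.33 (-0.51 to -0.14). Without a UMI of Wnt4 or Slc6a13, it was 9.42% (8.52 to 10.4) and 10.7% (9.80 to 11.6), a log2 ratio of -0.18 (-0.38 to 0.02). In that last subset paralogues 11 to 13 held 17 cKO and 59 flox UMIs, a log2 ratio of their share of -1.57 (-2.44 to -0.77). The count of lower members was again 8, but the share of all genes in that subset is not given here. Some genes of paralogues 9 to 11 were still lower in cKO cells without Wnt4. Hoxd11 had 1 cKO UMI and 35 flox UMIs there (log2 -4.99, interval -10.33 to -2.41). Hoxa10 had 19.9 CPM in cKO and 33.2 CPM in flox cells there (log2 -0.74, interval -1.07 to -0.41), and Hoxa11 14 and 42 UMIs (log2 -1.44, interval -2.43 to -0.54). Hoxa9 had 28.3 CPM in cKO and 59.8 CPM in flox cells (log2 -1.08). Hoxd9, by contrast, had 7.23 CPM in cKO and 7.29 CPM in flox cells there. Hoxb9 was higher, with 32.4 CPM in cKO and 24.7 CPM in flox cells (log2 0.39, interval 0.09 to 0.70).

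**Figure D5:**
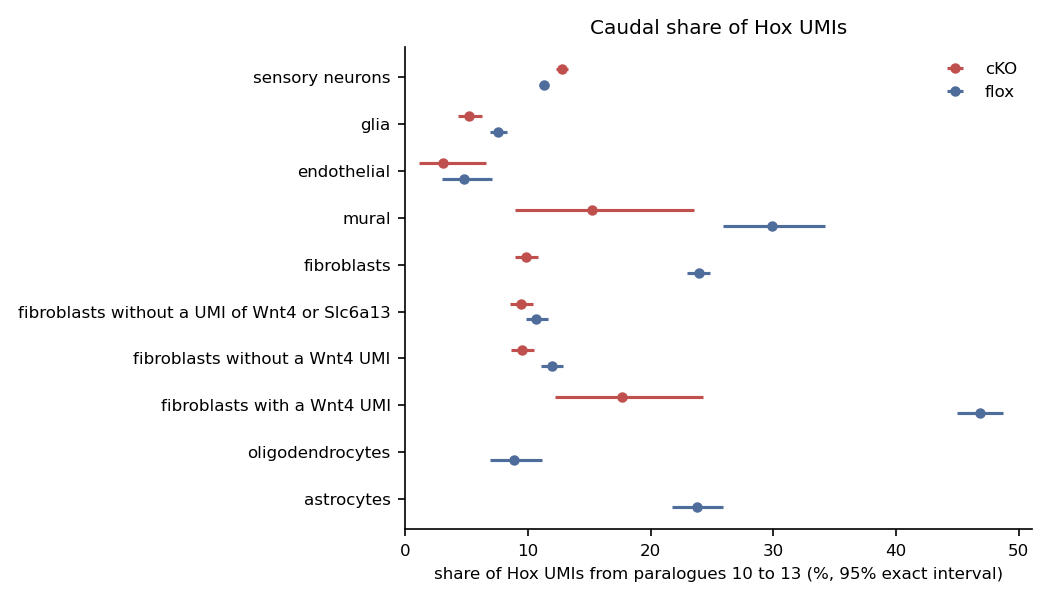
Share of Hox UMIs from paralogues 10 to 13 (%) in cKO and flox cells of each class, with 95% exact intervals; oligodendrocytes and astrocytes have flox values only. The fibroblast shares lie at 9.84% (cKO) and 23.9% (flox), and at 9.42% and 10.7% once cells with Wnt4 or Slc6a13 are left out; paralogues 11 to 13 alone still differed there, with a log2 ratio of -1.57.

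Of the vascular classes, mural cells had 4 measured members, and all 4 were lower in the cKO library by at least 0.5 log2, beside 28.2% of 2915 genes. Hoxa10 had 3 UMIs in cKO and 51 UMIs in flox mural cells (log2 -2.91, interval -5.24 to -1.28). Hoxc10 had 13 and 53 UMIs, Hoxb4 9 and 55, and Hoxb2 16 and 54. Paralogues 11 to 13 had 0 of 105 Hox UMIs in cKO mural cells, which allows a share of up to 3.45%, against 34 of 485 (7.01%) in flox mural cells. Thinned to 2000 UMIs, 5.63% (1.56 to 13.8) of cKO and 38.0% (27.3 to 49.6) of flox mural cells had a caudal UMI, and unthinned 16.3% and 67.4%. The log2 ratio of these thinned shares was -2.75 (-4.72 to -1.25), and with cells thinned to 5000 UMIs it was -1.07 (-3.43 to 0.62). The summed mural marker list was at 14663 CPM in cKO and 30284 CPM in flox cells of this class, and its part in the Hox values was not tested. Endothelial cells had 5 measured members, 2 of them lower in cKO cells beside 23.0% of 5733 genes, Hoxa7 (29.0 against 52.8 CPM) and Hoxb7 (18.9 against 34.5 CPM).

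Oligodendrocytes and astrocytes, present only in the flox library, also carried a Hox code. Astrocytes, at 1100 CPM (1048 to 1153) in all, had a caudal share of 23.8% (21.8 to 25.8), and 34.9% of 149 thinned cells had a caudal UMI. Their Hoxd11 was at 49.8 CPM, Hoxc11 at 26.8 CPM and Hoxa10 at 67.1 CPM, and they held 19 UMIs of paralogues 12 and 13, among them 9 of Hoxc13. Oligodendrocytes had 202 CPM in all and a caudal share of 8.85% (6.92 to 11.1), with Hoxa9 at 41.3 CPM and Hoxd8 at 35.4 CPM. Forebrain and midbrain genes were near 0 in the astrocytes, with 1 UMI of Otx1 and 0 of Otx2, Emx1, Emx2, Lhx2, En1 and En2. Central-type neurons had 49 cKO and 73 flox Hox UMIs, of which 16.3% (7.32 to 29.7) and 16.4% (8.79 to 27.0) were caudal. Of their 12 central neuron markers, 5 had a UMI in each library, and Gad1, Gad2, Slc32a1 and Slc6a5 were at 0 in both, so the central label rests on few sensory markers alone. Glial genes summed to 5286 CPM in the cKO and 20593 CPM in the flox cells of this gate. Over these cells, 9 of 9 peripheral sensory markers had a UMI in the cKO library (3173 CPM) and 7 of 9 in the flox library (719 CPM). Median depth was 1922 UMIs per cKO and 5403 UMIs per flox cell. Whether they are central neurons or shallow sensory neurons was not tested.

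The TALE proteins Pbx, Meis and Pknox bind DNA together with Hox proteins. All 9 were measured in sensory neurons, with 0 past 0.5 log2, beside 7.79% higher and 4.51% lower of all genes. Their median log2 ratio there was 0.08. Their largest value there was that of Pbx3, at 7.57 CPM in cKO and 5.75 CPM in flox neurons (log2 0.40). In fibroblasts, beside the 9.24% higher and 17.4% lower of all genes, 1 of 9 was higher, Pbx3 (20.7 against 9.84 CPM, log2 1.07), and 2 were lower, Pbx4 (log2 -1.20) and Pbx2 (log2 -0.87). In glia 2 of 9 were higher, Pknox2 (log2 0.86) and Pbx3 (log2 0.83), and 0 lower, beside 15.4% and 14.1% of all genes.

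Polycomb and trithorax genes, which keep Hox clusters silent or active, were measured for 11 of 11 members in neurons, with 0 past 0.5 log2. Of all genes measured in neurons, 7.79% were higher and 4.51% lower. In fibroblasts Eed (log2 0.63) and Kdm6b (log2 0.58) were higher and Ezh1 (log2 -0.72) lower, so 2 and 1 of 10 measured, beside the same 9.24% and 17.4%. Of the genes that set Hox levels in the embryo, Cdx1, Cdx2 and Cdx4 had 0 UMIs in cKO and flox fibroblasts. Of these 12 upstream genes 7 were measured there, 1 higher and 3 lower, beside the same 9.24% and 17.4%, with a median of -0.21. Aldh1a3 was the 1 higher, with 19.9 CPM in cKO and 13.2 CPM in flox fibroblasts. Aldh1a2 had 42 UMIs in cKO and 893 UMIs in flox fibroblasts (log2 -3.69, interval -4.18 to -3.25), Aldh1a1 24.0 and 57.1 CPM (log2 -1.25), and Rarb, a retinoic acid receptor named after its values were seen, 16.3 and 25.8 CPM (log2 -0.66). Fibroblasts with Wnt4 were fewer in the cKO library, as given above, and their part in these values was not tested.

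Among the few non-coding genes of the clusters that were measured, more were higher than lower in cKO neurons, glia and fibroblasts. In neurons 3 of 6 measured were higher and 0 lower (median log2 0.40), in glia 3 of 5 and 0 (median 0.62), and in fibroblasts 4 of 7 and 1 (median 0.58). Of all measured genes, 7.79% were higher and 4.51% lower in neurons, 15.4% and 14.1% in glia, and 9.24% and 17.4% in fibroblasts. The Hox medians in these classes were 0.09, -0.40 and -0.13. The 1 lower in fibroblasts was Hoxa11os, antisense to Hoxa11, with 10 UMIs in cKO and 141 UMIs in flox fibroblasts (log2 -3.10), and the sources used here do not say whether the counting used strand. Hotairm1, at the rostral end of Hoxa, was higher in cKO cells of 3 classes, with 19.3 against 9.37 CPM in neurons, 31.6 against 17.8 CPM in glia and 50.7 against 24.2 CPM in fibroblasts. Hottip had 0 UMIs in these 3 classes of both libraries.

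Taken over all fibroblasts, most measured position genes of trunk mesoderm were also lower in the cKO library. Of 7 trunk mesoderm genes 5 were measured, 4 of them lower and 1 higher, beside the 17.4% and 9.24% given above. Tbx18 had 12.9 CPM in cKO and 39.1 CPM in flox fibroblasts (log2 -1.60), Zic1 86.2 and 170 CPM, and Zic2 31.4 and 98.7 CPM. Tbx15 was higher, with 15.8 and 10.0 CPM (log2 0.66). Among flox fibroblasts, Tbx18 was in 40.8% of the 196 with a UMI of paralogue 11 and 16.4% of the others, and Zic1 in 84.2% and 54.8%. Among cKO fibroblasts these shares were 26.7% and 5.46% for Tbx18 and 33.3% and 28.8% for Zic1, with 15 cells in the first set. Fibroblasts with Wnt4 numbered 32 cKO and 317 flox cells, and their part in these levels was not tested. The limb genes Tbx4, Tbx5 and Pitx1 had 0, 0 and 1 UMIs in cKO and 0 UMIs each in flox fibroblasts, which is at or near 0 in both libraries.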

How the data were processed

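The deposited values were raw UMI counts per gene and barcode, made with cellranger 6.1.2 per the file headers; the submitters' processing notes list Cell Ranger 5.0.1, Scanpy and mm10. The sources used here do not say how introns, free RNA or doublets were treated. The cell filter asked for 1000 or more UMIs, 500 or more genes and a mitochondrial share of 15% or less. A marker counted at 1 UMI or more per 10000 UMIs of the cell, and classes needed 4 or 5 markers of their list. No second class was allowed, apart from erythroid markers in any class and glial markers in neurons, oligodendrocytes and astrocytes. Without these exceptions, 1325 of 2336 cKO and 1128 of 1569 flox sensory neurons remained. No doublet caller was run, and cells past gates of unlike classes were left out. Of class cells, 769 of 2336 cKO and 284 of 1569 flox neurons had the minimum of some gate. UMIs were summed per class. Levels have exact Poisson, shares Clopper-Pearson and ratios exact conditional binomial 95% intervals, which treat UMIs as independent. Members with at least 50 UMIs over both libraries were measured, and those with at least 100 could be named; members named with fewer (in endothelial, mural and central classes, neuron subtypes and fibroblasts split by Wnt4) were chosen after their values were seen. Some items of the lists are not reported here. Same-strand exon overlap touches 4 members and antisense overlap 10. The members and all lists were chosen with earlier results of these data known. Scripts were tested on simulated data. Positions came from GENCODE vM21. Scaling alternatives used edgeR 4.0.16 (TMM) and DESeq2 1.42.0 (size factors) in R 4.3.3. Intervals came from scipy 1.17.1 in Python 3.11.15, tables from pandas 2.3.3 with numpy 2.4.6, and plots from matplotlib 3.10.9.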

Additional observations from a re-analysis of the deposited data

Results flagged for a closer look

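The caudal share of Hox UMIs lay higher in the cKO library in one cell class and lower in others. The log2 ratio, cKO over flox, was 0.17 in sensory neurons, -0.54 in glia, -1.28 in fibroblasts and -0.97 in mural cells. With 1 library per genotype, the difference between classes was not tested. The neuron value was -0.046 (-0.39 to 0.30) with cells thinned to 2000 UMIs.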

How the results depend on the processing

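Values below are log2 ratios, cKO over flox, or counts of genes. With paralogues 9 to 13 in place of 10 to 13, the share of Hox UMIs was 0.043 in neurons and -0.73 in fibroblasts. With cells thinned to 2000 UMIs it was -0.046 in neurons (-0.39 to 0.30), 0.48 in endothelial cells (-2.09 to 3.25), which reversed, and -1.84 in mural cells. Without Hoxc10 it was -1.96 in fibroblasts and -2.71 in mural cells, and without fibroblasts that had Wnt4 or Slc6a13, an alternative added once the data had been seen, -0.18. The share of cells with a caudal UMI was -0.99 in fibroblasts and -1.07 (-3.43 to 0.62) in mural cells when thinned to 5000. Thinned to 2000 as in the report, but without those fibroblasts, it was -0.71. Summed Hox RNA with cells thinned was -0.012 in neurons, -0.35 in fibroblasts and -0.18 in endothelial cells. Members higher by 0.5 log2 numbered 1 in neurons with cells thinned. In glia they were 0 with TMM or DESeq2 scaling, 7 at 10 UMIs and 2 with 1 more marker; in fibroblasts 1 with either scaling, with 1 more marker and without cells of Wnt4 or Slc6a13. In endothelial cells 1 was higher at 10 UMIs and with 1 more marker, and 8 (10 UMIs) and 0 (thinned) were lower; in mural cells 1 was higher and 13 lower at 10 UMIs, and 0 lower when thinned. The cause was not tested, but fewer genes pass the minimum when thinned and more at 10 UMIs. The share of all genes past 0.5 log2 is not given at these settings, so these counts have no background and are not read as results about Hox genes. Of 32 alternatives for the share of Hox UMIs, 24 moved less than their interval. The median log2 ratio of all genes in mural cells was -0.12 by class total and -0.15 by TMM. No replicate could be left out. No paired analysis was possible because each genotype had 1 library.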

Other observations

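Sensory neurons that carried a UMI of paralogues 10 to 13 were compared with those without, in each library. A neuron without such a UMI can still hold caudal Hox RNA that was missed, so the split is one of detection. Of the deep neurons thinned to 20000 UMIs, 374 cKO neurons had such a UMI and 622 did not, and 395 flox neurons had one and 895 did not. Genes were ranked by the smaller bound of their intervals over both libraries, so that ranking fixes a shared direction, and the following is a description with no test. Cartpt, which encodes the CART neuropeptide, led, with 92.4 CPM in cKO neurons with caudal Hox RNA against 27.2 CPM in those without. In the flox library it had 115 CPM with and 30.9 CPM without. Trpv1, the heat and capsaicin channel, had 35.2 and 15.2 CPM in cKO, and 57.6 and 23.1 CPM in flox neurons, with and without caudal Hox RNA. Th, tyrosine hydroxylase, had 6.95 and 1.69 CPM in cKO, and 12.3 and 4.69 CPM in flox neurons. Ntf3, the neurotrophin-3 gene, had 20.2 and 8.52 CPM in cKO, and 22.7 and 6.31 CPM in flox neurons. Shf, Dcn, Cidea, Negr1, Crtac1 and C1qtnf7 completed the 10 higher genes, with log2 ratios of 1.27 to 1.73 in cKO and 1.30 to 2.16 in flox neurons.

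Among the 10 genes lower in neurons with caudal Hox RNA, Mrgpra3, the chloroquine itch receptor, had 19.8 CPM with and 42.2 CPM without in cKO neurons. In flox neurons it had 34.2 CPM with and 54.4 CPM without. Wnt2b had 4.28 and 8.36 CPM in cKO, and 3.54 and 7.77 CPM in flox neurons. Nmb, the neuromedin B gene, had 72.6 and 103 CPM in cKO, and 83.0 and 117 CPM in flox neurons. Tnr, Lpar3, Serpinb6c, Ccdc68, Tnfaip8, Cdk15 and Pdlim1 were the others.

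Subtype makeup also differed by this split. Peptidergic neurons were 34.0% (29.2 to 39.0) of cKO neurons with caudal Hox RNA, against 24.0% (20.7 to 27.5) of those without. In the flox library they were 34.2% (29.5 to 39.1) and 20.4% (17.8 to 23.2). Non-peptidergic neurons were 20.6% and 27.7% in the cKO, and 23.5% and 34.7% in the flox library, with and without. C-fibre low-threshold mechanoreceptors were 3.21% and 4.18% in the cKO, but 8.61% and 6.03% in the flox library. Myelinated neurons were 6.68% and 4.82% in the cKO, but 3.04% and 5.14% in the flox library, so for both subtypes the direction was not shared by the libraries. The summed fibroblast list, which holds Dcn, was at 257 and 204 CPM in cKO, and 309 and 202 CPM in flox neurons. The glial list was at 1921 and 1695 CPM in cKO, and 2394 and 2025 CPM in flox neurons. The erythroid list was at 113 and 56.6 CPM in cKO, and 253 and 268 CPM in flox neurons. Mean UMIs of paralogues 1 to 9 per neuron were 6.64 and 5.76 in cKO, and 6.27 and 5.57 in flox neurons. The part of these in the gene differences was not tested.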
